A study of Homo sapiens with 7 samples.

Results

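The polycomb group consists of repressor proteins that act in 2 complexes on chromatin, and the genes of their subunits were followed here through Hodgkin lymphoma (HL) cell lines. The list held 35 genes, 24 of complex 1 (PRC1) and 11 of complex 2 (PRC2). A gene was read only where the array annotation gives a probe set to it alone, which left 32 subunits with 89 probe sets among 19775 genes read in this way. The PRC1 genes RNF2 and CBX8 had no probe set named for them in the annotation used and were not analysed here, and the PRC1 gene BMI1 had only one that it shares with the readthrough COMMD3-BMI1, which was not used. PHC1 and SUZ12 each had 1 more shared probe set that was likewise set aside.

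The study profiled total RNA of 7 established lines (U-HO1, SUP-HD1, L-540, L-428, L-1236, KM-H2, HDLM-2) as biotin-labelled cRNA with 1 Affymetrix array per line, in search of transcription factor genes that are active out of place. All 7 carry the same description in the labels, HL cell line, and no treatment is given, so that each line is its own group and its reference is the other 6 lines. Each line came from 1 patient and has no replicate array, so no difference between lines could be tested against replicate error. The methods name 2 laboratories as source of the arrays without saying which line came from where, so laboratory and line cannot be told apart.

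PRC2 places methyl groups on lysine 27 of histone H3 through the catalytic subunits EZH1 or EZH2, which need EED and SUZ12 for activity. PRC1 ubiquitinates histone H2A through RING1 or RNF2 together with a PCGF protein. Canonical PRC1 holds a CBX protein that reads the methyl mark of PRC2, while variant PRC1 holds RYBP or YAF2 instead. EZH2 is abundant in dividing germinal-centre B cells, the cells from which most Hodgkin/Reed-Sternberg cells derive, and AUTS2 is known to turn the PCGF5 form of PRC1 into an activator.

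Promoters differed between subunits in a feature that the choice of genes did not use. Of the 33 listed genes with a RefSeq promoter (GRCh38.p14, read from 250 bases before to 20 after the start), the E2F motif TTTCCCGC or TTTGGCGC, searched on both strands, was found in 4, or 12.1%, against 2.13% of 27305 promoters of the same length. All 4 genes encode PRC2 subunits, and these sequences are shown because E2F factors are known regulators of EZH2. The motifs do not overlap each other, were chosen after array values had been seen, and a match is a description of letters, not of binding. Both motifs contain CpG, of which the listed windows held more (median 29 against 12), and the shares were not matched for it. In the next 4 sequences, capitals mark the motif or its reverse complement.
EZH2, chr7:148884272-148884541, minus strand: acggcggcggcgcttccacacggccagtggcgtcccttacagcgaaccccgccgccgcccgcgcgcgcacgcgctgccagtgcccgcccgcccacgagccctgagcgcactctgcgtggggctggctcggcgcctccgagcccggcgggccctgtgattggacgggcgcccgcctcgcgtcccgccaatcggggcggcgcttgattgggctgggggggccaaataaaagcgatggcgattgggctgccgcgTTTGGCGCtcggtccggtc
SUZ12, chr17:31936757-31937026, plus strand: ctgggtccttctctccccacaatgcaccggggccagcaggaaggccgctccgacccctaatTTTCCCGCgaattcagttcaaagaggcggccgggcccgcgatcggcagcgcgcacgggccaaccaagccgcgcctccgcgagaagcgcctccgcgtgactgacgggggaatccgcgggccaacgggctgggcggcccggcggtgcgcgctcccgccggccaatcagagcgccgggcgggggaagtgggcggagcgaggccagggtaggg
MTF2, chr1:93079033-93079302, plus strand: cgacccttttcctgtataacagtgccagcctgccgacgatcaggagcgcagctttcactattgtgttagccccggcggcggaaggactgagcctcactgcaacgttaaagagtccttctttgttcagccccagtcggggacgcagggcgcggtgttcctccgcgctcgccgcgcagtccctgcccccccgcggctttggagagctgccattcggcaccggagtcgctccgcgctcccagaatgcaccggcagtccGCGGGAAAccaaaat
PHF19, chr9:120877169-120877438, minus strand: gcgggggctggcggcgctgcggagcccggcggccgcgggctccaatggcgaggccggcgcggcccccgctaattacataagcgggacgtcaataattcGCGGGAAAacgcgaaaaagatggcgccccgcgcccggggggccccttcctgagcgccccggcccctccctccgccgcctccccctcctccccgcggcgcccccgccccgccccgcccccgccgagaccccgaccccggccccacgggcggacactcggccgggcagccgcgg
The AUTS2 promoter is shown because AUTS2 had the widest range of all subunits and because KDM2B, another subunit, binds unmethylated CpG. Capitals mark its 51 CpG dinucleotides, the highest number among the listed genes, whose windows held 2 to 51 with a median of 29, against a median of 12 over all promoters.
AUTS2, chr7:69598225-69598494, plus strand: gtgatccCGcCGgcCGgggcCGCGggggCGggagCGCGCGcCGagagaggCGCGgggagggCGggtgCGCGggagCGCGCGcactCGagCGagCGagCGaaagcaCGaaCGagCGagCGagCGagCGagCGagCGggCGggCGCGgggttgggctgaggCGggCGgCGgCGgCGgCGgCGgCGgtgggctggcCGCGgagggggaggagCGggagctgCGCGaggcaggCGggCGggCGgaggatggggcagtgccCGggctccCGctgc

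Levels are log2 values of 1 probe set per gene, the one with the highest mean over the lines, and levels of different probe sets are not set against each other. The background of an array was the 95th percentile of its 107 olfactory receptor probe sets, which lay at 5.59 in L-1236 and between 4.49 and 4.86 in the other lines. Above it stood 8609 genes in L-1236 and between 10554 and 11636 in the others. At the mean levels of the subunits, the median gene of L-1236 lay at -0.56 relative to the mean of the lines, against 0.07 to 0.18 in the other lines. U-HO1 differed in RNA measures, with an 18S ribosomal RNA signal of 11.12 against 5.23 to 7.06 elsewhere, and an excess of the 3' over the 5' ACTB probe set of 2.11 against 0.06 to 0.54. The lists of marker genes showed all 9 Hodgkin/Reed-Sternberg cell markers above background in 5 lines, 7 in L-1236 and 8 in SUP-HD1, where TNFRSF8 (CD30) stood at 4.36. Of 7 T- and NK-cell markers, 5 were above background in L-540, 3 in HDLM-2 and between 0 and 2 in the other lines, with CD3D at 8.89 in KM-H2. Of 8 B-cell markers, 6 were above background in SUP-HD1 and between 2 and 4 elsewhere, and of 5 myeloid markers at most 2 in any line. The part of these measures in the results was not tested.

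Most subunits were expressed in all HL cell lines. Of the 32 measured, 24 were above background in all 7 lines and 31 in at least 1, and the number per line lay between 28 in L-1236 and 31 in L-428. All 11 PRC2 subunits were above background in every line. SCML1, a gene of the SCM family, was below background in every line at both of its probe sets, with at most 4.01, in L-1236. The range over the lines (highest minus lowest) was at least 2 in 16 subunits, or 50%, made up of 10 PRC1 and 6 PRC2 genes, against 50.2% of the 14495 genes that exceeded background in some line. The median range was 1.98 for the subunits and 2.00 for all these genes, so the subunits varied between the lines as much as genes in general. Without L-1236 and U-HO1, 10 subunits had a range of at least 2, and the share of all genes was not taken there.

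**Figure D1:**
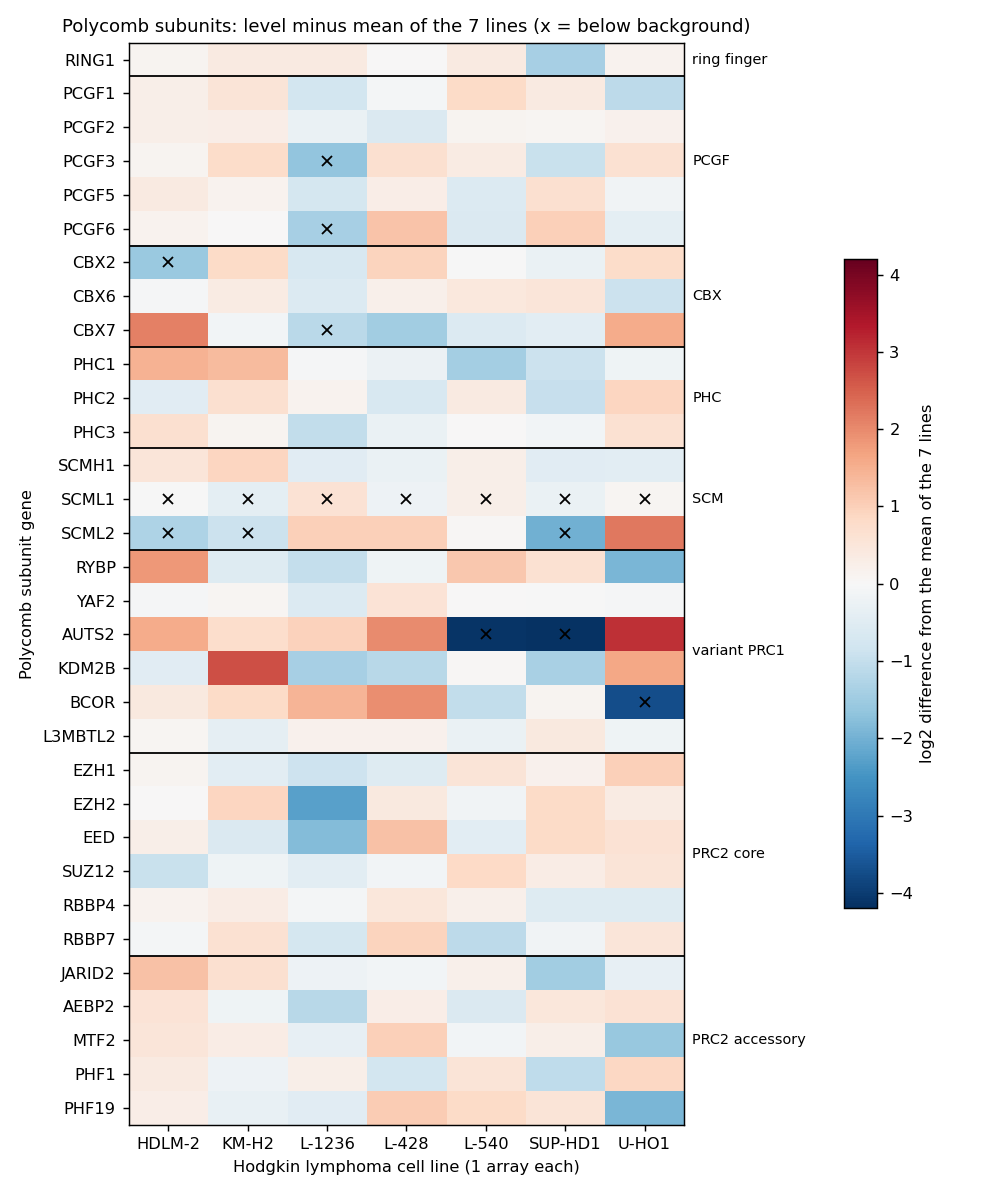
Colour gives the log2 level of each of the 32 measured polycomb subunits (rows, ordered by role) in each of 7 HL cell lines (columns, 1 array each) minus the mean of the 7 lines, and a cross marks a level below the background of that array. AUTS2 in L-540 and SUP-HD1 (-4.11 and -4.17) and BCOR in U-HO1 (-3.72) are the deepest values.

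The AUTS2 gene, which encodes the subunit that recruits coactivators to PCGF5-containing PRC1, separated the lines most. Its level was 10.19 in U-HO1, 9.12 in L-428, 8.68 in HDLM-2, 8.11 in L-1236 and 7.86 in KM-H2, but 3.03 in L-540 and 2.97 in SUP-HD1. Both low lines lay below their background of 4.51 and 4.49, so that the range of 7.22 shrank to 5.70 when values under background were raised to it. No line stood between the 5 high and the 2 low ones. The other 2 AUTS2 probe sets stayed at or near background in all lines, the highest value being 4.86 in U-HO1 against a background of 4.59, and the SD between the AUTS2 probe sets was 1.81. The result therefore rests on 1 probe set. PCGF5, the partner of AUTS2, was above background in all lines, with 9.03 in SUP-HD1, 8.73 in HDLM-2, 8.64 in L-428, 8.53 in KM-H2, 8.21 in U-HO1, 7.81 in L-540 and 7.63 in L-1236. Its range was 1.40 at this probe set and 2.37, 2.37 and 3.99 at the other 3 that reached background in most lines. L-1236 was lowest at the one read and at another, with 6.99, but highest at another one, with 8.33. At the probe set of largest variance, L-540 and U-HO1 were below background with 4.22 and 4.29, which is -2.12 and -2.05 relative to the 7-line mean, against -0.56 and -0.16 at the one read.

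BCOR, the corepressor of the PCGF1 form of variant PRC1, had a range of 5.68, next to that of AUTS2. Levels were 8.58 in L-428, 8.05 in L-1236, 7.44 in KM-H2, 7.04 in HDLM-2, 6.73 in SUP-HD1, 5.60 in L-540 and 2.90 in U-HO1. U-HO1 was below its background of 4.59 at all 4 BCOR probe sets, with 2.25, 2.90, 3.10 and 2.55. L-540 was the next lowest line at all 4, and was itself below background at 3 of them. With values raised to background its range was 3.99, below that of KDM2B, 4.07. PCGF1, the ring finger partner of BCOR, was also lowest in U-HO1, with 6.52 against a median of 7.94 in the other 6 lines, and at its second probe set with 4.48. L-1236 stood next at 6.84, and the highest level was 8.42 in L-540.

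KDM2B, the histone demethylase that brings the PCGF1 complex to unmethylated CpG islands, was high in a pair of lines. KM-H2 had 10.53 and U-HO1 9.45, whereas L-540 had 7.90, HDLM-2 7.35, L-428 6.69, SUP-HD1 6.49 and L-1236 6.46. The difference from the median of the other 6 lines was 3.51 in KM-H2 and 2.43 in U-HO1. KDM2B, PCGF1 and BCOR, which work in the same complex, thus did not share an order of the lines. KDM2B had a single probe set.

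RYBP, which replaces the CBX proteins in variant PRC1, was highest in HDLM-2. Its levels were 11.68 in HDLM-2, 11 in L-540, 10.51 in SUP-HD1, 9.70 in L-428, 9.33 in KM-H2, 8.87 in L-1236 and 7.96 in U-HO1. HDLM-2 came first at all 3 RYBP probe sets above background. U-HO1 was lowest only at the probe set read, and lay at 9.28 and 9.72 at the other 2, where L-1236 was lowest. YAF2, the paralogue of RYBP, kept within 6.11 to 7.28. L3MBTL2, which belongs to the PCGF6 complex, had the smallest range of the 32 at the probe sets read, 0.77. At its second probe set, above background in all 7 lines, the L3MBTL2 range was 1.91.

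The PCGF proteins define the form of PRC1. PCGF6 had 8.11 in L-428 and 7.92 in SUP-HD1, 1.41 and 1.22 over the median of the other 6 lines, while HDLM-2 had 7.06, KM-H2 6.91, U-HO1 6.50, L-540 6.30 and L-1236 5.52. The L-1236 value is below its background of 5.59. PCGF3 had 7.13 in KM-H2, 7.04 in L-428, 6.99 in U-HO1, 6.70 in L-540, 6.48 in HDLM-2, 5.42 in SUP-HD1 and 4.71, below background, in L-1236. At the other 4 PCGF3 probe sets 2 or more lines were below background. Among them, U-HO1 with 4.21 and SUP-HD1 with 4.36 were lowest at one, both below background, and L-1236 was lowest at another, with 4.05, also below background. At the remaining ones L-428, high at the probe set read, was lowest with 3.36 and 4.10, below background. PCGF2, whose probe sets can match several transcripts, kept within 5.95 to 6.82 at the one read, but had ranges of 1.39 to 2.14 at the others. RING1, a ring finger ligase of these forms, lay between 8.27 and 8.64 in 6 lines but at 6.89 in SUP-HD1. RNF2, which can take its place, was not read, so the ligase level as a whole is not known. SUP-HD1 was the lowest line at both RING1 probe sets, with 6.44 against 7.28 to 7.99 at the second.

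Among the CBX proteins, which bring canonical PRC1 to the methyl mark, CBX7 and CBX2 differed most between lines. CBX7 had 8.63 in HDLM-2 and 8.07 in U-HO1, against 6.41 in KM-H2, 6.08 in SUP-HD1, 5.93 in L-540, 5.38 in L-1236 and 5.06 in L-428. Both high lines stood well apart from the others, and L-1236 was below background. CBX2 had 7.29 in L-428, 7.16 in KM-H2, 7.12 in U-HO1, 6.35 in L-540, 6.08 in SUP-HD1, 5.70 in L-1236 and 4.81 in HDLM-2, the last below its background of 4.86. HDLM-2 thus had the highest CBX7 and the lowest CBX2 level of the lines, each against the same gene elsewhere. CBX6 ranged over 1.40, with U-HO1 lowest at 7.54 but highest, with 8.73, at its second probe set.

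The PHC and SCM proteins polymerise through SAM domains and link PRC1 complexes. PHC1 had 8.08 in HDLM-2 and 7.93 in KM-H2, against 6.58 in L-1236, 6.45 in U-HO1, 6.37 in L-428, 5.72 in SUP-HD1 and 5.19 in L-540. The same pair was highest, and L-540 lowest, at the second PHC1 probe set. PHC2 and PHC3 had ranges of 1.86 and 1.69. SCML2, read from a single probe set that may match related transcripts, had 7.49 in U-HO1, 6.27 in L-1236 and in L-428 and 5.34 in L-540, while HDLM-2, KM-H2 and SUP-HD1 were below background with 3.98, 4.38 and 3.25. SCMH1 was highest in KM-H2 with 7.24, against a median of 5.96 in the other 6 lines.

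**Figure D2:**
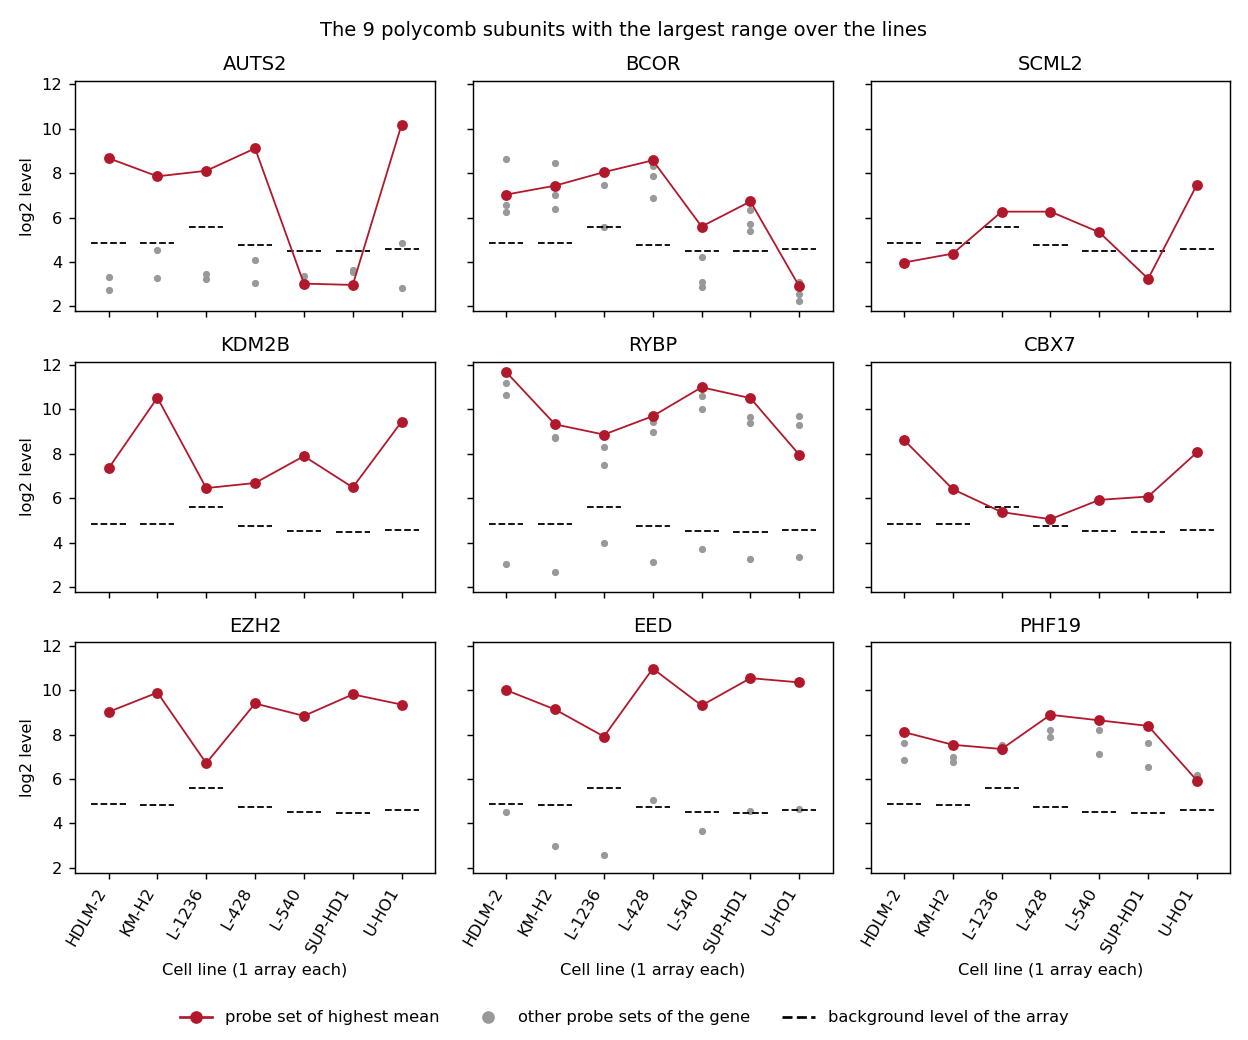
Each panel shows log2 levels (vertical axis) in 7 HL cell lines (horizontal axis, 1 array each) for 1 of the 9 subunits with the largest range, with red points for the probe set read, grey points for other probe sets of the gene and dashes for background. AUTS2 spans 2.97 to 10.19 at the probe set read while its other probe sets stay near background, whereas the 4 BCOR probe sets are all below background in U-HO1.

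Within the PRC2 core, the catalytic subunit EZH2 was lowest in L-1236. Its level was 9.89 in KM-H2, 9.81 in SUP-HD1, 9.40 in L-428, 9.35 in U-HO1, 9.02 in HDLM-2, 8.84 in L-540 and 6.71 in L-1236. L-1236 thus stood apart from the other 6 lines, which kept between 8.84 and 9.89. EED, which binds the methyl mark and stimulates EZH2, had 10.97 in L-428, 10.54 in SUP-HD1, 10.35 in U-HO1, 10 in HDLM-2, 9.31 in L-540, 9.13 in KM-H2 and 7.91 in L-1236. Since genes of this level read low on the L-1236 array in general, both were also set relative to the 500 genes of nearest mean level. EZH2 then stood at -1.74 and EED at -1.32 relative to the mean of the lines, against -2.29 and -1.83 as deposited. EZH2 has a single probe set, and the second EED probe set was at or below background in most lines.

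EZH1, the paralogue of EZH2 found also in resting cells, had 8.16 in U-HO1, 7.69 in L-540, 7.32 in SUP-HD1, 7.27 in HDLM-2, 6.72 in KM-H2, 6.60 in L-428 and 6.27 in L-1236. At the other EZH1 probe set that was above background in all lines, L-540 was highest with 7.46 and KM-H2 lowest with 6.11, and L-1236 had 6.46. With the mean of all EZH1 probe sets, U-HO1 stood at 0.17 and L-1236 at -0.018 relative to the 7-line mean, against 1.01 and -0.88 at the probe set read, so the places of both lines for EZH1 depended on the probe set. SUZ12, the scaffold of PRC2, was lowest in HDLM-2 with 9.02, against a median of 10.06 in the other 6 lines, and highest in L-540 with 10.79. RBBP7, a histone-binding subunit, had 11.54 in L-428, 11.27 in KM-H2, 11.12 in U-HO1, 10.54 in HDLM-2, 10.47 in SUP-HD1, 9.89 in L-1236 and 9.51 in L-540. Its paralogue RBBP4 stayed within 8.98, in U-HO1, to 10.02 at the probe set read. Its other probe sets had ranges of 1.61 to 3.33. U-HO1 was highest at some of them, with 9.99 at one, and KM-H2 at the rest, so the narrow range depended on the probe set.

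Accessory subunits steer PRC2 to its sites. JARID2, which defines one form of the complex together with AEBP2, had 8.50 in HDLM-2, 7.93 in KM-H2, 7.47 in L-540, 7.14 in L-428, 7.05 in L-1236, 6.92 in U-HO1 and 5.80 in SUP-HD1. SUP-HD1 was lowest at both JARID2 probe sets above background, with 4.43, just below background, at the second. AEBP2 was lowest in L-1236 with 7.69, against a median of 9.22 in the other 6 lines. The polycomb-like proteins MTF2, PHF1 and PHF19 define the other form. PHF19 had 8.89 in L-428, 8.64 in L-540, 8.39 in SUP-HD1, 8.11 in HDLM-2, 7.54 in KM-H2, 7.35 in L-1236 and 5.93 in U-HO1. At all 3 probe sets of the gene, U-HO1 was the lowest line. MTF2 was likewise lowest in U-HO1 with 7.19, against 9.79 in L-428, 9.31 in HDLM-2, 9.09 in KM-H2, 9.03 in SUP-HD1, 8.69 in L-540 and 8.44 in L-1236, but U-HO1 was lowest at only 2 of its 5 probe sets. PHF1 ran the other way in U-HO1, the line with its highest level, 8.78, while SUP-HD1 had the lowest with 6.85.

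A gene was counted as higher in a line when it was above background there and at least 1 over the median of the other 6 lines, and as lower when it was at least 1 under that median and the median was above background. These counts carry no test. In HDLM-2, 4 subunits were higher (CBX7, PHC1, RYBP and JARID2), or 12.5%, against 12.0% of all genes, and 3 were lower (CBX2, SCML2 and SUZ12) against 6.82% of all genes. KM-H2 had 3 higher (PHC1, SCMH1 and KDM2B) against 12.6% of all genes and 2 lower (SCML2 and EED) against 8.76%. At these probe sets the share of subunits was close to that of genes in general in both lines. At the probe sets of largest variance, 8 were higher in HDLM-2 and 7 in KM-H2, or 25% and 21.9%, against 14.5% and 16.1% of all genes. In KM-H2, 5 were higher without L-540 or without U-HO1, against 13.5% and 13.6% of all genes. There 1 was lower without L-428, SUP-HD1 or U-HO1, against 9.65%, 8.98% and 9.28% of all genes.

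L-1236 had the most low subunits. There 11 were lower (PCGF1, PCGF3, PCGF6, CBX2, PHC3, RYBP, KDM2B, EZH1, EZH2, EED and AEBP2), or 34.4%, against 24.8% of all genes, and 2 were higher (SCML2 and BCOR) against 9.73% of all genes. After a second quantile normalization 4 were lower and 2 higher, against 15.5% and 17.0% of all genes. Relative to genes of similar level 3 were lower and 5 higher, against 13.8% and 13.5% of all genes. With each array set to its median, however, 14 were lower, or 43.8%, and 2 higher, against 28.0% and 8.70% of all genes. The surplus of low subunits in L-1236 thus depended on the scaling. Without HDLM-2, KM-H2 or SUP-HD1, only 1 was higher in L-1236, against 9.93%, 9.78% and 10.1% of all genes.

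L-428 showed the opposite, with 8 subunits higher (PCGF6, CBX2, SCML2, AUTS2, BCOR, EED, RBBP7 and PHF19), or 25%, against 9.89% of all genes, and 2 lower (CBX7 and PHF1) against 6.87%. Several of these lay just over the limit, and relative to genes of similar level 4 were higher, or 12.5%, against 8.83% of all genes. With a difference of 1.5 as limit, 1 was higher in L-428, or 3.125%, against 4.88% of all genes, so the surplus was gone. Without the L-1236 array 5 were higher and 4 lower, against 9.27% and 8.82% of all genes. Without HDLM-2 or SUP-HD1 4 were lower as well, against 7.02% and 7.51% of all genes. SUP-HD1 had 8 lower (RING1, PCGF3, PHC2, SCML2, AUTS2, KDM2B, JARID2 and PHF1), also 25%, against 7.66% of all genes, and only PCGF6 higher against 11.5%. The number lower in SUP-HD1 was 9 after a second quantile normalization and 9 relative to genes of similar level, against 8.46% and 8.87% of all genes. With a difference of 1.5 as limit it was 4, or 12.5%, against 3.99% of all genes. Of the 8 genes, 6 encode PRC1 subunits and 2 PRC2 accessory subunits, and no PRC2 core subunit was among them. The number of higher subunits in SUP-HD1 was 3 without HDLM-2 or L-428, against 12.6% and 12.9% of all genes. It was 2 without L-540 or U-HO1, against 12.7% and 12.5% of all genes.

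L-540 had RYBP alone higher against 10.4% of all genes, and 4 lower (PHC1, AUTS2, BCOR and RBBP7) against 7.64%. The number higher in L-540 was 2 without KM-H2, against 11.2% of all genes. It was 3 without HDLM-2, L-428, SUP-HD1 or U-HO1, against 11.8%, 11.6%, 11.4% and 11.3% of all genes. U-HO1 had values in both directions, with 6 higher (CBX7, PHC2, SCML2, AUTS2, KDM2B and EZH1) against 15.0% of all genes, and 6 lower (PCGF1, CBX6, RYBP, BCOR, MTF2 and PHF19) against 9.73%. For CBX6 and RYBP the low place of U-HO1 was not shared by other probe sets of the gene. Over the 32 subunits in 7 lines there were 25 higher and 36 lower values, spread over 26 subunits. Of the values of all genes, 11.6% were higher and 10.3% lower. The share of all genes counted in at least 1 line was not taken. PCGF2, PCGF5, SCML1, YAF2, L3MBTL2 and RBBP4 were counted in no line.

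**Figure D3:**
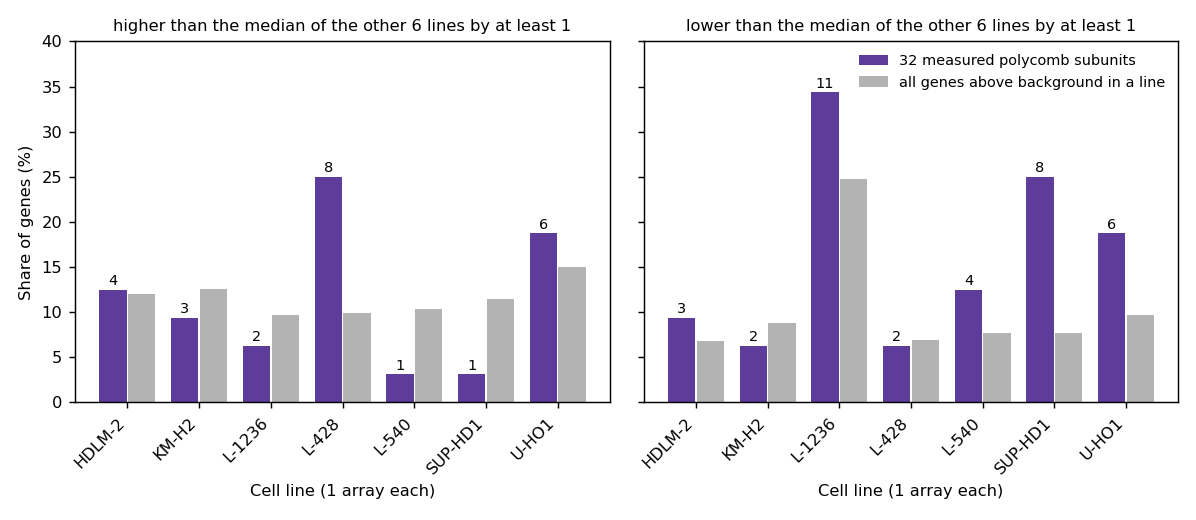
Bars give the share in % (vertical axis) of the 32 measured polycomb subunits (violet, number above) and of all 14495 genes above background in a line (grey) that were higher (left panel) or lower (right panel) by at least 1 on the log2 scale than the median of the other 6 HL cell lines (horizontal axis, 1 array each). At this limit L-428 stands out for 8 higher and SUP-HD1 for 8 lower subunits, while the 11 lower subunits of L-1236 meet 24.8% of all genes. With a limit of 1.5 (not drawn), 1 subunit was higher in L-428, against 4.88% of all genes.

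The CBX, PCGF, RYBP and AUTS2 genes, of which 10 were measured, were compared with the 11 PRC2 subunits in each line, as medians of the level relative to the mean of the 7 lines. The PRC1 median was 0.24 and the PRC2 median 0.26 in HDLM-2, and 0.23 against 0.24 in SUP-HD1. KM-H2 had 0.30 for PRC1 and -0.17 for PRC2, a difference of 0.47. U-HO1 had 0.0079 for PRC1 and 0.50 for PRC2, a difference of -0.49. Over 17 alternatives the KM-H2 difference ran from 0.19 to 0.74, while that of U-HO1 ran from -0.60 to 0.16 over 16. In L-1236 both medians were low, -0.76 for PRC1 and -0.49 for PRC2, a difference of -0.28. L-428 had 0.25 for PRC1 and 0.40 for PRC2, and L-540 had 0.048 for PRC1 and 0.20 for PRC2, differences of -0.15 and -0.16.

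With no replicates, these differences between medians have no error of their own. For a single gene, the SD of the relative level between its probe sets was 0.58 over 7283 genes with 20474 probe sets, which can also hold differences between transcripts. How far single genes went also differed between the sets, but not in every line. In KM-H2, PRC1 genes ran from -0.53 (RYBP) to 0.80 (CBX2), and PRC2 genes from -0.61 (EED) to 0.89 (EZH2). In HDLM-2, PRC1 genes ran from -1.55 (CBX2) to 2.12 (CBX7), and PRC2 genes from -0.94 (SUZ12) to 1.24 (JARID2). PRC1 genes ran from -4.17 (AUTS2) to 1.02 (PCGF6) in SUP-HD1 and from -1.90 (RYBP) to 3.05 (AUTS2) in U-HO1, whereas PRC2 genes ran from -1.46 (JARID2) to 0.81 (EZH2) in SUP-HD1 and from -1.91 (PHF19) to 1.01 (EZH1) in U-HO1. The median range was 1.90 over all 21 measured PRC1 genes and 2.03 over the PRC2 genes. The extreme PRC1 values thus came from a few genes, AUTS2 above all. In SUP-HD1 the next lowest of the PRC1 genes compared was PCGF3, at -0.93, which is above the lowest PRC2 gene. Only in KM-H2 was the difference between PRC1 and PRC2 of the same sign under all alternatives. Without probe sets ending in _x_at or _s_at it was 0.06 in U-HO1, 0.071 in L-428 and 0.034 in L-540, and with the probe set of largest variance or the mean of the probe sets it was 0.40 in L-1236.

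**Figure D4:**
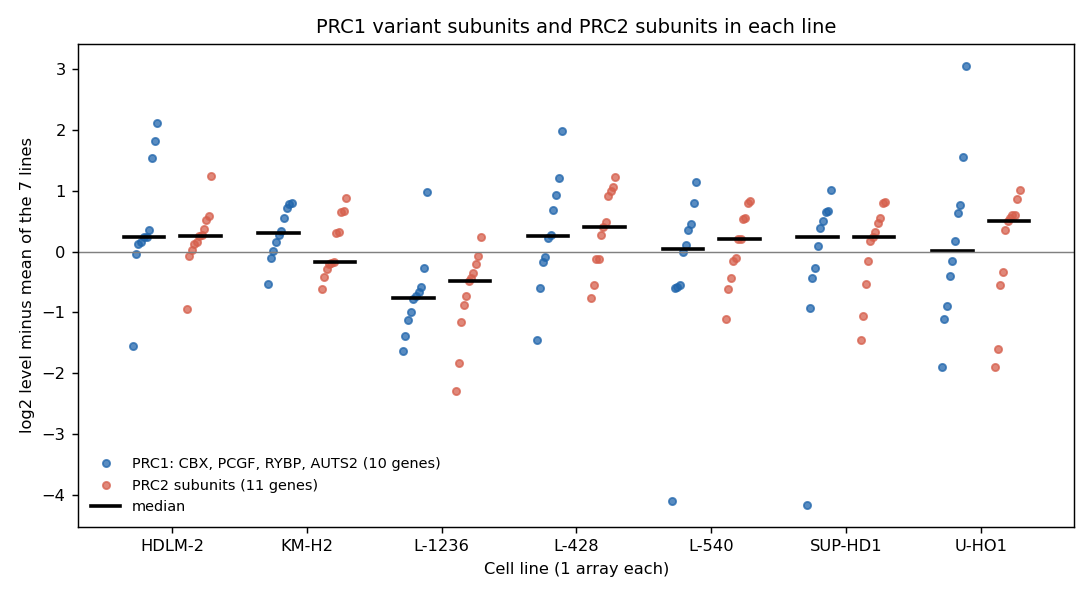
Points are the log2 levels of single genes minus the mean of the 7 lines (vertical axis), blue for the 10 measured CBX, PCGF, RYBP and AUTS2 genes and red for the 11 PRC2 subunits, in each HL cell line (horizontal axis, 1 array each), with black bars for medians. Medians of both sets differ by 0.47 in KM-H2 and by -0.49 in U-HO1, while AUTS2 stands at -4.11 in L-540 and at -4.17 in SUP-HD1.

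Pairs of subunits known to work together or to replace each other were examined over the 7 lines, with two-sided tests that are exact because all 5040 pairings were drawn, and p-values were adjusted for 6 relations (Benjamini-Hochberg). For EZH1 and EZH2, the exact permutation test gave p = 0.367 for r = 0.43 (adjusted p = 0.911) and p = 0.906 for rho = 0.071 (adjusted p = 0.906). Without L-1236 and U-HO1, the lines farthest from the median of EZH1, r was -0.58, so the positive sign rested on them. For EED and SUZ12, the exact test gave p = 0.678 for r = 0.20 (adjusted p = 0.911) and p = 0.498 for rho = 0.32 (adjusted p = 0.906), with r = 0.015 without L-1236 and L-428. RYBP and YAF2 showed exact p = 0.779 for r = 0.18 (adjusted p = 0.911) and p = 0.637 for rho = 0.22 (adjusted p = 0.906), with r = 0.32 without HDLM-2 and U-HO1. CBX7 and EZH2 showed exact p = 0.605 for r = 0.26 (adjusted p = 0.911) and p = 0.713 for rho = 0.18 (adjusted p = 0.906), with r = 0.49 without HDLM-2 and U-HO1. For AUTS2 and PCGF5, the exact test gave p = 0.911 for r = -0.051 (adjusted p = 0.911). Their rho was -0.14, with exact p = 0.783 (adjusted p = 0.906), and r was 0.11 without SUP-HD1 and L-540. AUTS2 levels fell into 5 high and 2 low lines, so these coefficients say little about a graded relation. In the 2 lines with low AUTS2, PCGF5 stood at 7.81 in L-540 and at 9.03, its highest level, in SUP-HD1.

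Proliferation was set beside PRC2 because EZH2 is a gene of dividing cells. EZH2 and MKI67 showed exact p = 0.611 for r = 0.29 (adjusted p = 0.911) and p = 0.783 for rho = -0.14 (adjusted p = 0.906), with r = -0.42 without L-1236 and KM-H2. MKI67, the Ki-67 gene, had 9.71 in L-540, 9.64 in HDLM-2, 9.19 in L-428, 9.03 in SUP-HD1, 8.35 in KM-H2, 7.82 in L-1236 and 7.58 in U-HO1. U-HO1, with the lowest MKI67 level, was thus not low in EZH2. Relative to the 7-line mean, the median of 15 proliferation genes was lowest in L-1236, at -0.73, and highest in L-428, at 0.52. The median of the 6 PRC2 core subunits was -0.80 in L-1236 and 0.44 in L-428, but it was highest in U-HO1, at 0.52, where that of the proliferation genes was -0.34. In L-1236, 6 of 6 core subunits and 14 of 15 proliferation genes were below their mean, as were 62.3% of all genes. Relative to genes of similar level the L-1236 medians were -0.27 for the core subunits and -0.21 for the proliferation genes.

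**Figure D5:**
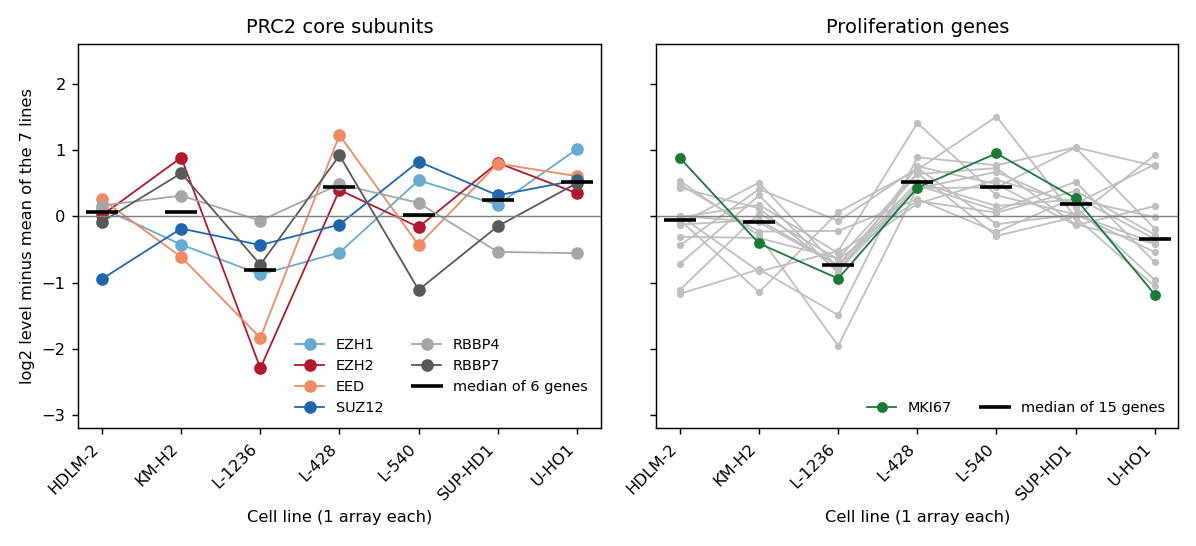
Log2 levels minus the mean of the 7 lines (vertical axis) are shown for the 6 PRC2 core subunits (left, coloured by gene) and 15 proliferation genes (right, MKI67 in green, others grey) in each HL cell line (horizontal axis, 1 array each), with black bars for medians and thin lines joining the points of a gene. EZH2 lies at -2.29 and EED at -1.83 in L-1236, where the medians are -0.80 for the core subunits and -0.73 for the proliferation genes.

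Genes around the polycomb complexes gave the setting of these levels. Of 16 partners of variant PRC1, 5 had a range of at least 2, against 50.2% of all genes. Over the lines, 6.25% of their values were higher and 8.04% lower, against 11.6% and 10.3% of the values of all genes. FBRSL1, the AUTS2 paralogue, was highest in U-HO1 with 7.64, then in KM-H2 with 7.01 and L-428 with 6.41, and was at or near background in the others. Among 12 H3K27 demethylases and trithorax methyltransferases, which oppose polycomb, 4 had such a range, and 8.33% of their values were higher and 7.14% lower, against the same shares of all genes. The methyltransferase gene KMT2D had 8.22 in U-HO1, 7.98 in KM-H2, 7.40 in L-428, 6.94 in L-540, 6.20 in L-1236, 5.91 in HDLM-2 and 4.79 in SUP-HD1. Of 5 measured genes for H2A deubiquitinases and their partners, 1 had a range of at least 2 (50.2% of all genes), ASXL2, with 9.90 in L-1236 and 7.80 in U-HO1 as extremes.

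Among 5 genes known as polycomb targets, 3 had a range of at least 2, against 50.2% of all genes. CDKN2A, the p16 gene that polycomb silences in many tissues, had 11.22 in L-1236, 10.22 in HDLM-2, 9.02 in L-428, 8.08 in SUP-HD1, 7.69 in U-HO1, 4.71 in L-540 and 4.15, below background, in KM-H2. L-1236, the line with the lowest EZH2 level, had the highest CDKN2A level, and its neighbour CDKN2B was above background only there, with 6.06. MSX1, a homeobox gene, was highest in KM-H2 with 7.52 and next in SUP-HD1 with 5.91, and NKX2-2 was below background in all 7 lines, from 2.67 to 3.03. Whether the level of any subunit bears on these genes was not tested.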

How the data were processed

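Total RNA of 7 HL cell lines was hybridised to 1 Affymetrix array each. The deposited log2 values are the authors' own, and the methods describe RMA background correction with quantile normalization. A second quantile normalization still changed them, so the arrays as deposited did not share the same distribution. In L-1236 the share of all genes counted as lower went from 24.8% to 15.5%. The submitters' notes name RMA, limma and affy without versions. All value columns were used (unused: 0).

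Of 54675 probe sets, 41097 carry a single gene symbol, 1801 several and 11777 none, and 41043 were matched by gene identifier to the RefSeq table (GRCh38.p14). Only single-gene probe sets were read, at the one of highest mean. Members and lists were chosen with earlier results of these data known. All 35 members may be named, with full values for those with a range of at least 2, those the PRC1 and PRC2 comparison turns on, and EZH2, EZH1, AUTS2 and PCGF5. Of each other list up to 4 genes of largest range were named, with MKI67, NKX2-2 and MSX1 always.

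With 1 array per line no model was fitted, and calls are differences of at least 1 with no test. Relations used exact permutation tests. Alternatives changed the probe set, normalization, background percentile (90 or 99), limits, and lines used. Scripts (Python 3.11.15, numpy 2.4.6, pandas 2.3.3, scipy 1.17.1) were tested on simulated data. The number of arrays and the signal over background limit precision.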

Additional observations from a re-analysis of the deposited data

Results flagged for a closer look

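In 40 sets of 7 values examined, namely 32 subunit levels and medians of subunit groups, 3 had 1 line farther from the rest than Dixon's critical value for the gap over the range, a limit that chance passes in about 1 of 20 sets. The RING1 level of SUP-HD1 was 6.89, with 8.27 in L-428 as the next value. The EZH2 level of L-1236 was 6.71, with 8.84 in L-540 as the next. The median of the PRC2 core subunits in L-1236 was -0.80 relative to the 7-line mean, with 0.02 in L-540 as the next, and this median includes EZH2. Relative to genes of similar level it was -0.27 in L-1236, with -0.11 in L-540 as the next, and 0.49 at most, in U-HO1, so L-1236 then stood less apart. All 3 values were above the background of their arrays or made from values that were.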

How the results depend on the processing

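No paired analysis was possible because only 1 array was made per line. The relations of RING1 with RNF2 and of BMI1 with PCGF2 were not run, since RNF2 and BMI1 were not read. Of the other results, the difference between PRC1 and PRC2 moved from its reported value by less than 0.58 in 114 of 117 alternatives. This limit, the SD between probe sets of a single gene, exceeds every reported difference, the largest in size being -0.49 in U-HO1. A change of sign can thus fall within it, as in U-HO1, with 0.06 without probe sets ending in _x_at or _s_at. Keeping only subunits above background or setting each array to its median could not change any difference. A shift of a whole array cancels between the medians of PRC1 and PRC2. SCML1, the only subunit never above background, belongs to neither set compared. Both settings are counted among the 117, so they say nothing about how stable the differences are. The sign was the same under all alternatives only in KM-H2, at 0.19 to 0.74. The relative levels of single subunits moved by less than 0.58, with no called sign reversed, in 1610 of 1700 alternatives. Subunits with a single probe set, EZH2 and KDM2B among them, could not move with the choice of probe set. They are counted here, so the share overstates stability to that choice. The relations had no adjusted p under 0.05 in 81 (0.445 to 0.985). Signal over background limits the reading of low levels, in L-1236 above all. The cause of the changes below was not tested beyond what each alternative changes.

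With the probe set of largest variance, 8 subunits were higher in HDLM-2, 7 in KM-H2, 1 in L-1236 and 2 in SUP-HD1. Of all genes, 14.5%, 16.1%, 10.9% and 14.4% were higher in these lines. In L-540, 7 subunits were lower, against 8.80% of all genes. With the same probe sets, PRC1 minus PRC2 was 0.40 in L-1236, and PCGF5 in L-1236 stood at 0.42 from the 7-line mean. With the mean of all probe sets, 1 was lower in HDLM-2 and 3 in U-HO1, against 4.88% and 7.99% of all genes. In L-1236, 1 was then higher, against 6.80% of all genes, and PRC1 minus PRC2 was 0.40. Relative levels reversed to -0.23 for PCGF3 in L-428, -0.27 for PCGF3 in U-HO1 and 0.15 for PCGF5 in L-1236. CBX2 reversed to -0.17 in KM-H2 and 0.19 in L-1236. Without probe sets ending in _x_at or _s_at, 24 subunits were left, of which 19 were above background in HDLM-2, 18 in L-1236 and 18 in L-540. There 0 were lower in KM-H2, 6 in L-1236 and 3 in U-HO1, against 8.65%, 25.4% and 8.68% of all genes. Higher were 0 in L-1236, 4 in L-428 and 0 in L-540, against 9.64%, 10.1% and 10.3% of all genes. Of the 24, 10 had a range of at least 2. RYBP, then read from a probe set below background, reversed to -0.26 in HDLM-2, 0.70 in L-1236, -0.061 in SUP-HD1 and 0.039 in U-HO1, and JARID2, likewise, to -0.46 in KM-H2 and 0.17 in SUP-HD1.

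After a second quantile normalization 4 were lower in L-1236, against 15.5% of all genes. Relative to genes of similar level, 1 was lower in KM-H2 and 3 in L-1236, against 8.14% and 13.8% of all genes. On this scale 5 were higher in L-1236 and 4 in L-428, against 13.5% and 8.83% of all genes. With values raised to background 1 was lower in KM-H2, against 6.49% of all genes. Without L-1236 and U-HO1 together, 2 were higher in L-540 and 0 in SUP-HD1, against 9.98% and 10.8% of all genes. Without these lines 10 had a range of at least 2. With a difference of 1.5, 0 were lower in KM-H2, 4 in L-1236, 0 in L-428, 2 in L-540 and 4 in SUP-HD1. Of all genes, 4.13%, 13.7%, 3.43%, 4.42% and 3.99% were lower in these lines. Higher were 0 in L-1236, 1 in L-428, 0 in L-540 and 0 in SUP-HD1. The shares of all genes were 5.64%, 4.88%, 5.27% and 5.53%. With a range of 3, 8 subunits passed. For counts of ranges under alternatives the share of all genes was not taken. With means over the members, PRC1 minus PRC2 in U-HO1 was 0.16.

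With each line left out in turn, the number higher ranged from 3 to 5 in KM-H2, 1 to 2 in L-1236, 5 to 7 in L-428, 1 to 3 in L-540 and 1 to 3 in SUP-HD1, and the number lower from 1 to 2 in KM-H2 and 2 to 4 in L-428. The number with a range of at least 2 went from 12 to 16.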
